A study of Mus musculus with 24 samples.

Results

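The genes described here encode the nuclear parts of the mitochondrial respiratory chain and ATP synthase. They were chosen by symbol alone, as every gene of the deposited count table whose name begins with Nduf and a subunit letter, with Uqcr, with Atp5, or with Cox and a digit from 4 to 8, plus Sdha to Sdhd. The rule took 83 of the 11140 genes in the table, and all 83 were among the 11020 genes tested. They comprise 34 genes of complex I, 7 complex I assembly factors (Ndufaf1 to Ndufaf7), 4 genes of complex II, 8 of complex III, 14 of complex IV and 16 named for complex V. Ndufa4 was counted with complex IV, where its protein sits despite its name. Atp5s and Atp5sl carry the name of the ATP synthase but are not among its subunits.

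B lymphoma cells were purified from mouse spleen and their RNA sequenced, in 23 libraries of separately labelled lymphomas. As T cell sufficient, 12 lymphomas came from C57BL/6 mice of genotype Bcl6Tg/+, which carry a Bcl6 transgene, and as T cell deficient, 11 came from C57BL/6 mice of genotype Bcl6Tg/+CD3Epsilon-/-, which carry the same transgene and lack CD3 epsilon, the signalling chain that T cells need to develop. Run 1 held 7 sufficient and 5 deficient libraries, and run 2 held 5 and 6. The sources used here give neither the ages and sexes of the mice nor the promoter of the transgene.

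The respiratory chain passes electrons from NADH through complex I, or from succinate through complex II, to complex III and then to complex IV, cytochrome c oxidase, which reduces oxygen. Complexes I, III and IV pump protons, and ATP synthase, complex V, makes ATP from the proton gradient. Complex II is encoded wholly in the nucleus, while the others also need subunits encoded in mitochondrial DNA, which were not analysed here. Some subunits of complexes IV and V come in isoforms encoded by separate genes. Cox4i1 is the general form of subunit 4, and Cox4i2 is known from lung and for its response to low oxygen. Germinal centre B cells and many B cell lymphomas are known to use oxidative phosphorylation.

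Library totals lay between 7.58 and 30.6 M counts (M, mega), so that 3 counts were worth 0.102 to 0.406 CPM. The B cell marker Cd79a, a signalling chain of the B cell receptor, had means of 1280.2 CPM ± 369 (SD, n = 12) in sufficient lymphomas and 855 CPM ± 181 (SD, n = 11) in deficient ones. The deleted gene Cd3e had means of 0.966 and 2.47 CPM in sufficient and deficient lymphomas (log2 fold change 1.07 ± 0.57 SE, edgeR adjusted p = 0.179), and the sources used here do not say which stretch of it was deleted. T cell sufficient libraries 9, 10 and 11 stood apart in holding more than 20 CPM of both Xist and Y-linked transcripts, of which female cells express the former and male cells the latter. The calls of the 83 genes between groups and between runs are also given without these 3. Permutations, shares, summed levels, correlations and lists of other genes are given with them only. All 3 are among the 5 sufficient libraries of run 2. In bulk RNA, fewer cells of a type and less RNA per cell cannot be told apart.

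Most of the genes of oxidative phosphorylation did not pass the test between T cell deficient and sufficient lymphomas. Of the 83 genes, 1 was higher in deficient lymphomas (Cox4i2), 8 were lower (Ndufa6, Ndufs8, Ndufb10, Uqcrh, Cox7a2l, Cox6c, Cox8a and Atp5e) and 74 did not pass the test (quasi-likelihood test of edgeR, run as a term, Benjamini-Hochberg adjusted p under 0.05 over all genes tested). The share called was 10.8%, against 22.2% of all genes tested. In the higher direction 10.6% of all genes were called and in the lower direction 11.7%. The median log2 fold change of the 83 genes was -0.03, beside -0.01 over all genes, and the median size without sign was 0.14, beside 0.25. The spread left between lymphomas after run and group was also small, with a median biological coefficient of variation of 19.6% against 27.8% over all genes. Genes were not matched for level in these comparisons. For 75 of the 83 genes the log2 fold change was under 0.3 in size. Of 8 B cell markers, 4 were lower in deficient lymphomas and 4 did not pass. Among the lower ones were Cd79a, Cd79b and Cd22 (log2 fold changes -0.58, -0.53 and -1.59). Of 11 monocyte and macrophage markers 2 were lower (Lyz2 and Itgam) and 9 did not pass. The part of cell makeup in the differences below was not tested.

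**Figure D1:**
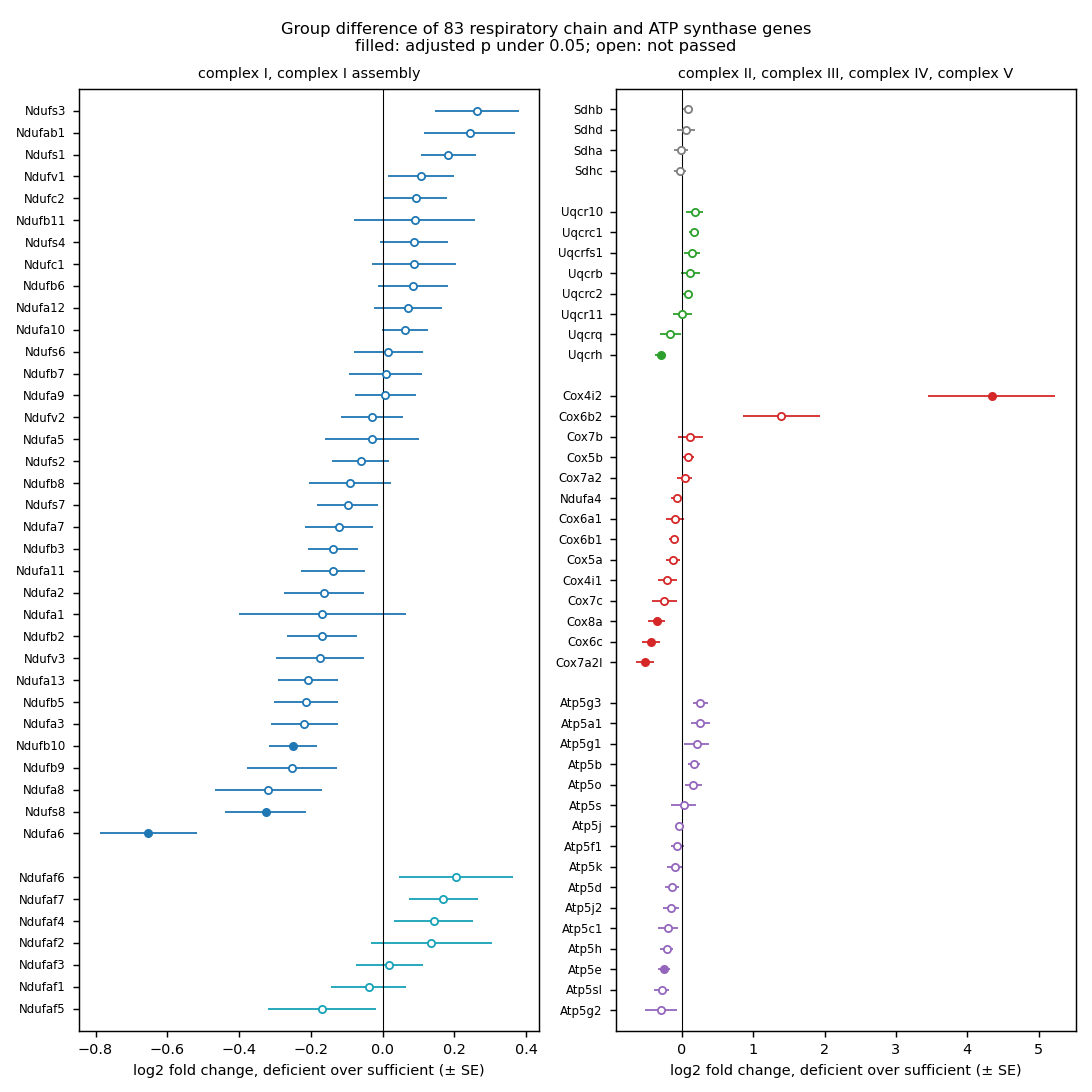
Log2 fold change of T cell deficient over sufficient lymphomas (x axis) for each of the 83 genes (rows), grouped by complex and sorted within it, with bars of ± 1 SE. Points are filled where the adjusted p is under 0.05; the axes of the panels differ in range. Cox4i2 stands alone on the right at 4.34, and the 8 genes that were lower lie between -0.65 and -0.25.

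By complex, the genes that passed were 3 of 34 in complex I, 1 of 8 in complex III, 4 of 14 in complex IV and 1 of 16 in complex V. None passed among the 4 genes of complex II or the 7 assembly factors of complex I (edgeR), and none of these 11 had an unadjusted p under 0.05. The median log2 fold change was -0.08 in complex I, 0.14 in its assembly factors, 0.02 in complex II, 0.10 in complex III, -0.11 in complex IV and -0.08 in complex V. No gene of the 83 had groups that did not overlap, and 0.163% of all genes did. In the authors' deposited table, 9 of the 83 genes had an FDR under 0.05 against 22.8% of the table's genes. Of these, 8 are among the 9 named above, with Cox6b2 in place of Ndufs8.

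Cox4i2, the alternative form of subunit 4, was almost absent from sufficient lymphomas and present in nearly every deficient one. The gene spans 152754173 to 152765037 of chromosome 2, plus strand (GRCm38, GENCODE M21). In sufficient libraries 1 to 12 its counts were 0, 0, 0, 8, 18, 2, 2, 0, 6, 0, 3 and 0, a sum of 39. In deficient libraries 1 to 11 the counts were 101, 183, 25, 67, 17, 302, 23, 1, 59, 248 and 84, a sum of 1110. Thus 6 of 12 sufficient libraries held no count, which allows up to 3 counts' worth or at most 0.406 CPM, and 10 of 11 deficient libraries lay above the highest sufficient one. The exception was deficient library 8, with 1 count. Its mean was 0.206 CPM ± 0.291 (SD, n = 12) in sufficient lymphomas, against 4.59 CPM ± 4.46 (SD, n = 11) in deficient ones.

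The fitted log2 fold change of Cox4i2 was 4.34 ± 0.89 SE (edgeR adjusted p = 0.00209). With so many libraries at or near 0 this size is loosely fixed, while the direction rests on the counts above. Relabelling the libraries within runs gave a permutation p of 0.00015 for its log2 CPM (two-sided). Within run 1 the exact permutation p over 792 splits was 0.0253, and within run 2 it was 0.00216 over 462 splits. Fitted in run 1 alone, Cox4i2 did not pass over all genes (log2 fold change 3.45, edgeR adjusted p = 0.186), where no gene of the table did, although 1832 of 11064 had an unadjusted p under 0.05.

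Cox4i1, the general form, lies on chromosome 8 at 120668222 to 120674207 and showed no difference that passed the test. In run 1 its level was 281 to 614 CPM in sufficient libraries (median 391) and 278 to 470 CPM in deficient ones (median 375), and in run 2 it was 189 to 422 CPM (median 226) and 186 to 229 CPM (median 213). The log2 fold change was -0.21 ± 0.13 SE (edgeR adjusted p = 0.267), and the groups overlapped in both runs. Per length, Cox4i2 made up 0.0623% ± 0.0943 (SD, n = 12) of the summed Cox4 level in sufficient lymphomas. In deficient lymphomas it made up 1.98% ± 2.15 (SD, n = 11), from 0.0225% to 5.98%. The difference in this share had a permutation p of 0.001 within runs (two-sided), and exact permutation p-values of 0.0114 in run 1 and 0.0195 in run 2.

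**Figure D2:**
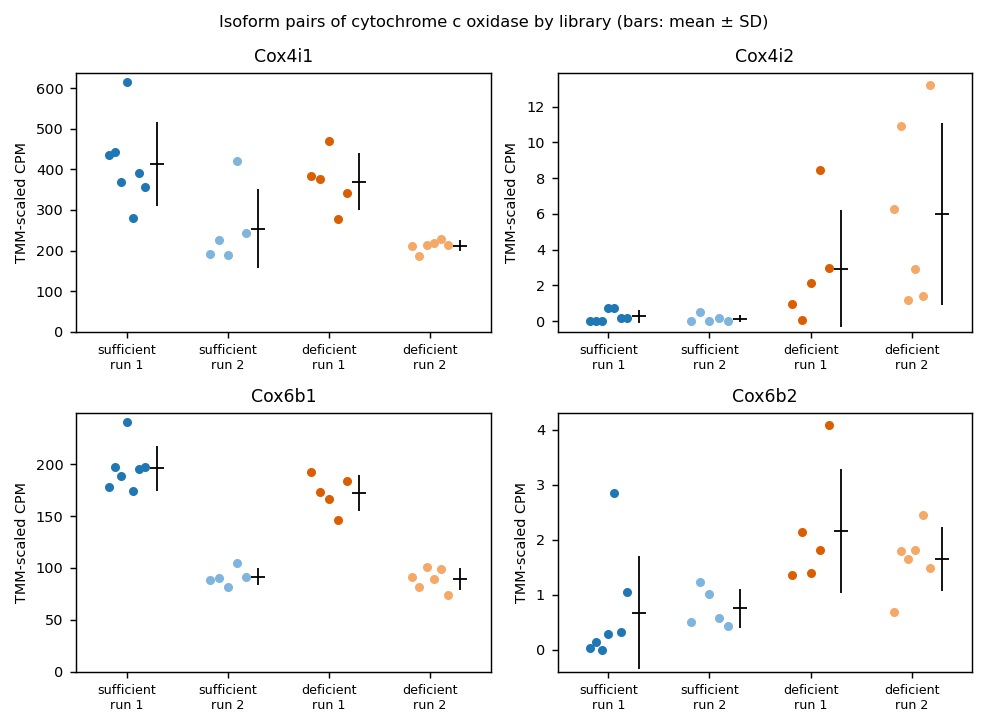
CPM scaled by TMM (y axis, panels differ in range) of the isoform pairs Cox4i1 and Cox4i2, and Cox6b1 and Cox6b2, with 1 point per library by group and run, and bars at the mean ± SD. Cox4i2 is at or below 0.754 CPM in all sufficient libraries and reaches 13.2 CPM in deficient ones, while Cox4i1 and Cox6b1 separate by run more than by group.

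Cox6b2, a form of subunit 6B best known from testis, had a pattern of the same direction that did not pass the test. Its level in sufficient libraries ran from 0 to 2.86 CPM with a median of 0.467, and in deficient libraries from 0.681 to 4.08 CPM with a median of 1.79. All 11 deficient libraries lay above the sufficient median, and 1 above every sufficient library. The log2 fold change was 1.40 ± 0.54 SE (edgeR adjusted p = 0.064). DESeq2 and limma-voom called it, as did the authors' deposited table (log2 fold change 1.95, FDR 0.00989). Without sufficient library 5, the one at 2.86 CPM, edgeR called it too, at a log2 fold change of 1.94 (adjusted p = 0.00788). Its general partner Cox6b1 had a log2 difference of -0.11 ± 0.07 SE (edgeR adjusted p = 0.27).

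Cox4i2 is also known from smooth muscle and pericytes, so markers of other cells were set beside it. Of a list of 9 endothelial and stromal markers 4 were measured, and their summed level was 30.3 to 259 CPM in sufficient and 24.4 to 163 CPM in deficient libraries. Kdr and Col1a1 of that list were lower in deficient lymphomas, at log2 fold changes of -1.58 (edgeR adjusted p = 0.0347) and -4.96 (adjusted p = 0.000151). Pecam1 and Cdh5 did not pass, at log2 fold changes of -0.53 (adjusted p = 0.358) and 0.24 (adjusted p = 0.628). The smooth muscle and pericyte markers Acta2 and Pdgfrb were on that list but not among the 4 measured. The part of such cells in the Cox4i2 difference was not tested. Rbpj, Cxxc5 and Chchd2, reported to act on COX4I2 in human cells, did not pass the test, at log2 fold changes of -0.67, -0.24 and -0.05. Of 19 hypoxia response genes 1 was lower, Adm, which encodes adrenomedullin (log2 fold change -2.61 ± 0.68 SE, edgeR adjusted p = 0.0102), none was higher and 18 did not pass. Bcl2l1, which encodes the survival protein Bcl-xL and whose annotated end lies 15630 bases beyond that of Cox4i2 on the opposite strand, was higher in deficient lymphomas (log2 fold change 1.72 ± 0.40 SE, edgeR adjusted p = 0.00489). The sources used here do not say whether reads were counted by strand. Tpx2, a spindle assembly factor beyond Bcl2l1, was also higher (log2 fold change 0.66 ± 0.14 SE, adjusted p = 0.00222), whereas Pdrg1 farther along was lower (log2 fold change -0.38 ± 0.13 SE, adjusted p = 0.0432). Between them Ttll9 did not pass (log2 fold change -1.63, adjusted p = 0.182), nor did H13 and Mcts2 before Cox4i2 (-0.28 and 0.66, adjusted p = 0.431 and 0.464).

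In complex IV, 3 further genes were lower in deficient lymphomas. Cox7a2l encodes a relative of subunit 7A2 described as a supercomplex assembly factor, of which C57BL/6 mice are known to carry a short form with impaired function. In run 1 its level was 153.4 to 312 CPM in sufficient libraries (median 252) and 153.9 to 225 CPM in deficient ones (median 155). In run 2 it was 145 to 230 CPM (median 191) and 107 to 160.2 CPM (median 129). All 11 deficient libraries lay below the sufficient median of their own run, and the groups overlapped in both runs (log2 fold change -0.52 ± 0.12 SE, edgeR adjusted p = 0.00466). Its relative Cox7a2 had a log2 difference of 0.04 ± 0.10 SE (edgeR adjusted p = 0.818). Per length, Cox7a2l made up 63.2% ± 8.61 (SD, n = 12) of the pair in sufficient and 56.2% ± 9.94 (SD, n = 11) in deficient lymphomas, a share that was not tested.

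Cox6c and Cox8a, small membrane subunits of cytochrome c oxidase, were the other 2. Cox6c had run 1 medians of 226 CPM in sufficient and 151 CPM in deficient libraries, and run 2 medians of 128 and 84.8 CPM. It was 1.35-fold lower (-0.43 ± 0.13 SE on the log2 scale, edgeR adjusted p = 0.0191), with 9 of 11 deficient libraries below the sufficient median of their own run. Cox8a had run 1 medians of 363 and 292 CPM and run 2 medians of 146 and 138 CPM. It was 1.28-fold lower (-0.36 ± 0.11 SE on the log2 scale, adjusted p = 0.0302), with 10 of 11 below the sufficient median of their own run.

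In complex I the largest difference was that of Ndufa6, an accessory subunit of the matrix arm. In run 1 its level was 66.7 to 180 CPM in sufficient libraries (median 105) and 59.2 to 104 CPM in deficient ones (median 71.9). In run 2 it was 47.0 to 79.4 CPM (median 66.6) and 33.2 to 50.6 CPM (median 36.2). It was 1.57-fold lower (log2 fold change -0.65 ± 0.14 SE, edgeR adjusted p = 0.00222), with all 11 deficient libraries below the sufficient median of their own run. Ndufs8, a core subunit that carries iron-sulphur clusters, had medians of 145 and 124 CPM in run 1 and 91.4 and 72.6 CPM in run 2 (log2 fold change -0.33 ± 0.11 SE, adjusted p = 0.0424). Ndufb10, an accessory subunit of the membrane arm, had medians of 87.2 and 79.4 CPM in run 1 and 61.9 and 52.7 CPM in run 2 (log2 fold change -0.25 ± 0.07 SE, adjusted p = 0.0113). Below the lowest sufficient library of run 2 lay 6 of 6 deficient libraries for Ndufb10, and 5 of 6 for Ndufa6 and for Ndufs8. In run 1 the same count was 2 of 5 for Ndufb10 and for Ndufa6, and 1 of 5 for Ndufs8. Counts of this kind within a run were not made over all genes. Ndufs1, the largest core subunit, did not pass (log2 fold change 0.18 ± 0.08 SE, adjusted p = 0.0825).

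In complex III, Uqcrh, the hinge protein at the site of cytochrome c1, was the only gene of the 8 to pass in this fit. It had medians of 192 CPM in sufficient and 153 CPM in deficient libraries of run 1, and of 107 and 83.5 CPM in run 2 (log2 fold change -0.30 ± 0.07 SE, edgeR adjusted p = 0.00827). In complex V, Atp5e, the epsilon subunit of the central stalk, passed. It had medians of 228 and 190 CPM in run 1 and of 98.2 and 79.7 CPM in run 2, and was 1.19-fold lower (-0.26 ± 0.09 SE on the log2 scale, adjusted p = 0.0364). For Uqcrh and Atp5e all 11 deficient libraries lay below the sufficient median of their own run. Atp5a1 and Atp5b, for the alpha and the catalytic beta subunit of the enzyme's head, had log2 fold changes of 0.26 ± 0.13 SE and 0.18 ± 0.08 SE, which did not pass (adjusted p = 0.17 and 0.135). Of the 3 genes for the identical c ring protein, Atp5g3 supplied 87.8% ± 2.49 (SD, n = 12) of the summed level per length in sufficient and 88.9% ± 2.63 (SD, n = 11) in deficient lymphomas. Atp5g1 and Atp5g2 share 66.0% and 100% of their 50-base stretches with other genes, so their counts are uncertain.

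**Figure D3:**
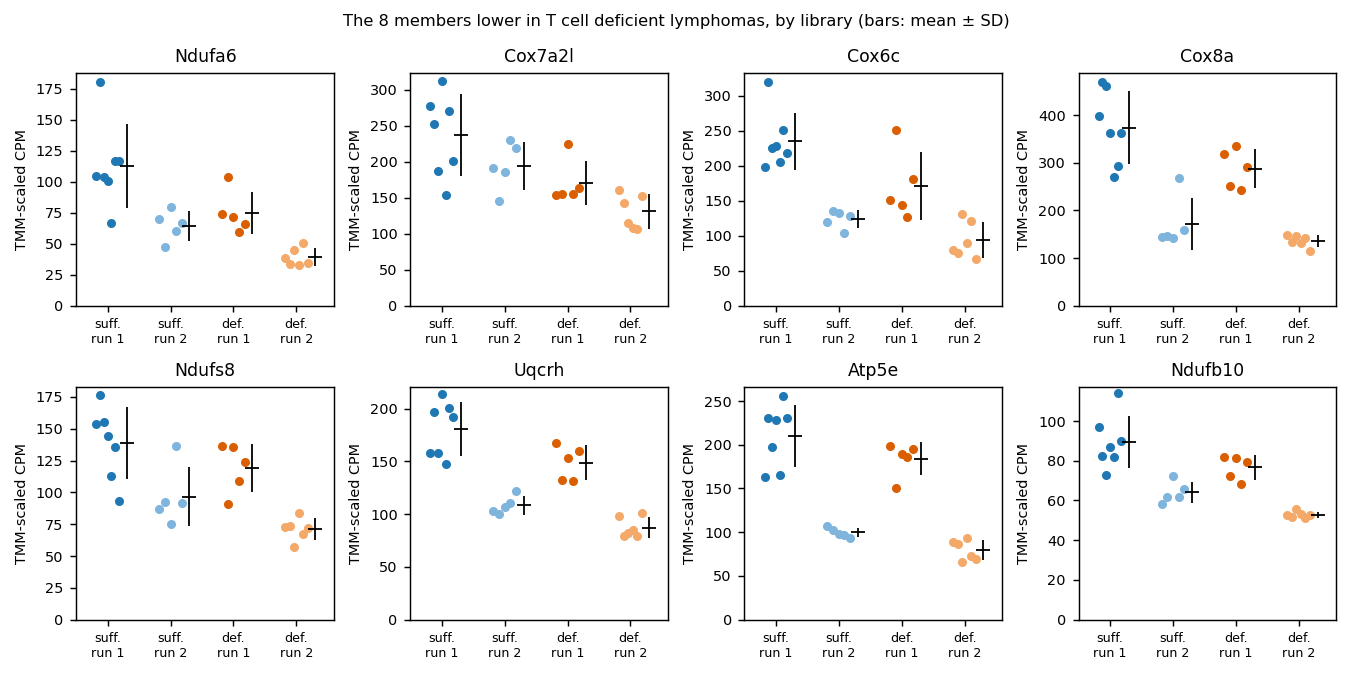
CPM scaled by TMM (y axis from 0, panels differ in range) of the 8 genes lower in T cell deficient lymphomas, with 1 point per library by group and run (suff., sufficient; def., deficient) and bars at the mean ± SD. Within each run the deficient mean is below the sufficient mean in every panel, and run 2 is below run 1 in both groups.

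Only part of this set held in other fits. All 8 had negative log2 fold changes in each run, but they were chosen as lower in the fit of both runs. Their shared sign, and their counts of deficient libraries below the sufficient median of their own run, are therefore no separate support. Those counts were not made over all genes. In run 1 alone no member was called (edgeR), and 7 had an unadjusted p under 0.05. In run 2 alone Ndufa6, Cox7a2l and Cox4i2 were called. Over all genes 0 of 11064 were called in run 1 alone and 1359 of 11051 in run 2 alone. The fit of both runs called 2448 of 11020. Without the 3 mixed libraries, where 1470 of 11043 genes were called, Ndufa6, Cox7a2l, Uqcrh and Cox4i2 stayed called. Ndufs3, a core subunit of complex I, was called higher there (log2 fold change 0.38, edgeR adjusted p = 0.0389). Cox6c, Cox8a, Ndufb10, Atp5e and Ndufs8 kept their direction there at log2 fold changes of -0.44, -0.30, -0.22, -0.24 and -0.25, with adjusted p from 0.0559 to 0.146. With each library's counts corrected for transcript length, an alternative added after the data were seen, Ndufa6, Cox7a2l, Cox6c and Cox4i2 stayed called, and the other 5 did not pass (adjusted p from 0.082 to 0.388). That fit also called Atp5g3 and Uqcr10 higher (log2 fold changes 0.35 and 0.31, adjusted p = 0.0137 and 0.0129). Over all genes it called 2331 of 10531.

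Promoter windows of 300 bases are shown for 5 of the 8 genes that were lower, those whose window holds a motif of NRF1 or of the ETS family. NRF1 and the ETS factor GABP are known regulators of respiratory genes. They run from 250 bases before to 50 after the annotated start and are written 5′ to 3′ on the strand of the gene (RefSeq, GRCm38.p6). Capitals mark the NRF1 motif (GCGCA, any base, GCGC) in Ndufa6 and the ETS motif CCGGAAG in the others, on either strand.
Ndufa6, chr15:82354242-82354541, minus strand: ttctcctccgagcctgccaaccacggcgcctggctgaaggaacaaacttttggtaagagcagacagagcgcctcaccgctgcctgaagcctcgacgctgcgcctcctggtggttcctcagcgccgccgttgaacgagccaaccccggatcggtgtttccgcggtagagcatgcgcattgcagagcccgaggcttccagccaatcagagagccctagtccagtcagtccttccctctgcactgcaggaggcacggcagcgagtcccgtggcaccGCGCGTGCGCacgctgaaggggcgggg
Uqcrh, chr4:116075021-116075320, minus strand: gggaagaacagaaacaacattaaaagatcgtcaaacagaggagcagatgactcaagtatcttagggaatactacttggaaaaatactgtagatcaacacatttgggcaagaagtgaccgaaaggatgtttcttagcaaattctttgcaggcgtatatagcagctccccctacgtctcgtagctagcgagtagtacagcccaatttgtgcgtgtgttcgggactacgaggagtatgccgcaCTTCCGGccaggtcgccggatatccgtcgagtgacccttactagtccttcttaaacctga
Cox8a, chr19:7217567-7217866, minus strand: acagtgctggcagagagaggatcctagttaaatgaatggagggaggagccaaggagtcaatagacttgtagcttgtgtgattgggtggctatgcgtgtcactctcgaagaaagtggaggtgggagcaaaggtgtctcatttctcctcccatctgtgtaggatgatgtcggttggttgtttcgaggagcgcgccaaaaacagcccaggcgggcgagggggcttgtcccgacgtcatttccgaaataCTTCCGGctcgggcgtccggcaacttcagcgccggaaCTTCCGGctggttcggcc
Atp5e, chr2:174464052-174464351, minus strand: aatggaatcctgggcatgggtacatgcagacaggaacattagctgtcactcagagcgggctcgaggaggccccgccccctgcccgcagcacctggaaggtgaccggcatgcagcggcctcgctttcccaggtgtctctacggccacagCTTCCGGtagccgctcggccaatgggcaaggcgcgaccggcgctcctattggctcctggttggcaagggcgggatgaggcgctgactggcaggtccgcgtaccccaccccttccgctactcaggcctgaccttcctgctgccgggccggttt
Ndufs8, chr19:3912725-3913024, minus strand: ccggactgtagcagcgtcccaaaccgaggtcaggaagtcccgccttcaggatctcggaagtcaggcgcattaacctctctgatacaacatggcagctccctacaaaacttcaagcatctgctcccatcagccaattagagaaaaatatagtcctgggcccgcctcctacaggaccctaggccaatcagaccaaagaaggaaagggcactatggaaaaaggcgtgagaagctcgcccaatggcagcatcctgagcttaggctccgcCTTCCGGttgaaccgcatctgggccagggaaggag

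A window was matched for 70 of the 83 genes, 3 of them through an older symbol. The NRF1 motif was in 24.3% of these 70, against 12.3% of the 9006 genes of the table with a window. The motif AANATGGCG of YY1, another regulator of respiratory genes, was in 15.7% against 6.47%. The ETS motif was in 22.9% against 21.8%, and the GC box GGGCGG in 45.7% against 69.4%. Of the 8 genes that were lower, 7 had a window. The ETS motif was in 4 of these 7 and in 12 of the other 63, and the NRF1 motif in 1 and 16. A match is a description of letters and shows no binding.

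Lists of genes that act around the chain were counted in the same fit, and their shares are to be read beside the 10.6% of all genes called higher and 11.7% called lower. Of 19 cytochrome c oxidase assembly genes, 3 were lower in deficient lymphomas and 16 did not pass. The 3 were Surf1, needed for assembly of subunit 1 (log2 fold change -0.54, edgeR adjusted p = 0.0252), Coa5 (-0.43, adjusted p = 0.00241) and Pet100 (-0.46, adjusted p = 0.0307). Of 4 ATP synthase assembly and inhibitor genes, 1 was higher, Atpif1, whose protein blocks ATP hydrolysis by the enzyme (log2 fold change 0.48 ± 0.12 SE, adjusted p = 0.00921). Of 6 further genes of the complex III core and its assembly, 1 was higher, Ttc19, an assembly factor (log2 fold change 0.44 ± 0.14 SE, adjusted p = 0.0238). None of 9 further complex I assembly genes and neither of 2 complex II assembly genes passed (edgeR), and in each list 1 had an unadjusted p under 0.05. Of 12 electron carrier and supercomplex genes 1 was lower, Higd2a (log2 fold change -0.55, adjusted p = 0.0165).

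Of 17 genes of the tricarboxylic acid cycle and pyruvate dehydrogenase, 2 were higher, Pdhx and Idh3a (log2 fold changes 0.57 and 0.31), 1 was lower, Ogdh (-0.19), and 14 did not pass. Of 18 glycolysis genes, 2 were higher, Pfkm and the lactate transporter Slc16a1 (1.04 and 0.81), 1 was lower, Pfkl (-0.72), and 15 did not pass. Among 17 regulators of mitochondrial genes, 3 were higher, Gabpa, Nrf1 and the mitochondrial DNA polymerase Polg, and 1 was lower, Esrra, with 13 not passing. Gabpa encodes the ETS factor GABP alpha, and its mean rose from 135 CPM ± 12.7 (SD, n = 12) in sufficient lymphomas to 156 CPM ± 9.40 (SD, n = 11) in deficient ones (log2 fold change 0.22 ± 0.06 SE, edgeR adjusted p = 0.0105). Nrf1 had a log2 difference of 0.19 ± 0.06 SE (edgeR adjusted p = 0.0381) and Polg of 0.66 ± 0.13 SE (adjusted p = 0.00144).

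The largest shift in these genes was between the sequencing runs and not between the groups, a comparison added after the levels were seen. In run 2, 71 of the 83 genes were lower than in run 1, 2 were higher (Atp5g2 and Atp5sl) and 10 did not pass (edgeR with group as a term, adjusted p under 0.05). Over all genes 36.3% were called, 17.7% of them lower and 18.6% higher as shares of the genes tested. The median of the 83 genes was a log2 fold change of -0.76, a level 1.69-fold lower, beside 0.02 over all genes. For 37 of the 83 every run 2 library lay below every run 1 library, which held for 2.11% of all genes. The reverse, with run 2 above run 1 throughout, held for 0 of the 83 and for 2.72% of all genes. The shift was present in each complex, with 32 of 34 genes lower in complex I, 4 of 7 among its assembly factors, 4 of 4 in complex II, 8 of 8 in complex III, 11 of 14 in complex IV and 12 of 16 in complex V. Runs hold different mice as well as different sequencing, and these cannot be told apart here.

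The summed level of complex IV, in CPM per kilobase of transcript, was 3738 ± 430.3 (SD, n = 7) in sufficient and 3261 ± 351 (SD, n = 5) in deficient libraries of run 1. In run 2 it was 1972 ± 293 (SD, n = 5) and 1711 ± 159 (SD, n = 6). Complex V, over the 14 of its 16 genes with a length, had 3829 ± 340.1 (SD, n = 7) and 4022 ± 543 (SD, n = 5) in run 1, and 2462 ± 162 (SD, n = 5) and 2490 ± 273 (SD, n = 6) in run 2. For complex I the means were 3602 and 3402 in run 1 and 2042 and 1841 in run 2. Complex III had 1549 and 1582, then 858 and 845. Complex II had 467 and 482, then 324 and 332. These sums are over unequal numbers of genes, so their order between complexes is not read. In each complex the difference between runs exceeded the difference between groups within a run.

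**Figure D4:**
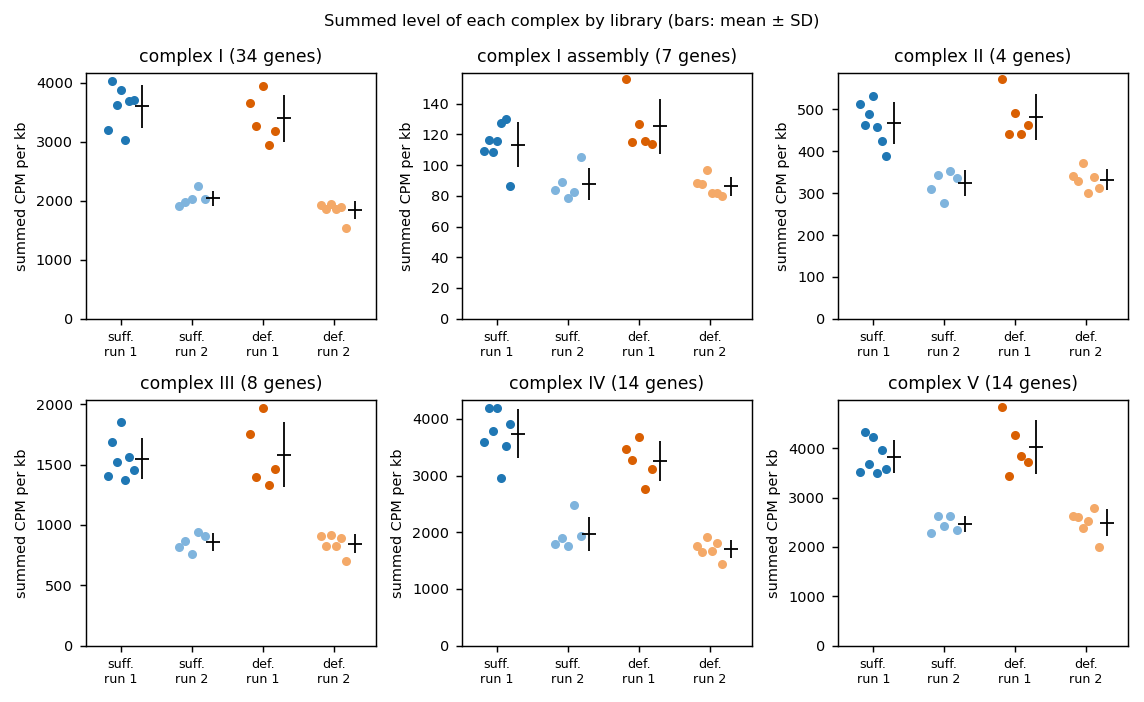
Summed level of each complex in CPM per kilobase (y axis from 0, panels differ in range), with 1 point per library by group and run (suff., sufficient; def., deficient) and bars at the mean ± SD. All run 2 libraries lie below all run 1 libraries for complexes I to V, while the groups overlap within each run.

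The genes with the largest run differences encode very small proteins. Atp5k, the e subunit of ATP synthase, ran from 51.4 to 100.3 CPM in run 1 and from 16.4 to 24.6 CPM in run 2, a 3.68-fold lower level (log2 fold change -1.88 ± 0.11 SE, edgeR adjusted p = 6.39e-11). Ndufa1, a small membrane subunit of complex I, ran from 36.6 to 140 CPM and from 16.0 to 36.1 CPM (log2 fold change -1.77 ± 0.24 SE, adjusted p = 5.43e-06). The small complex III subunits Uqcrq, Uqcr10 and Uqcr11 had log2 fold changes of -1.39, -1.35 and -1.34. In none of these 5 genes did the runs overlap. At the other end, Atp5g2, whose counts are uncertain, and Atp5sl were higher in run 2 (log2 fold changes 0.80 and 0.29). Ndufs1 had a log2 difference of 0.06 ± 0.08 SE (edgeR adjusted p = 0.576), and Sdha, the flavoprotein of complex II, of -0.32 ± 0.10 SE (adjusted p = 0.0129). Cox4i2 and Cox6b2 also did not pass between runs.

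Transcript length moved with the run difference. Among members with a transcript under 700 bases, 29 of 32 were lower in run 2, with a median log2 fold change of -1.05, beside -0.66 for 220 other genes of that length, of which 54.5% were lower. From 700 to under 1000 bases 14 of 15 members were lower (51.6% of other genes), and from 1000 to under 1500 bases 13 of 18 (37.5%). From 1500 to under 2500 bases, 12 of 12 members were lower with a median of -0.47, beside -0.09 for 2586 other genes, of which 21.3% were lower. From 2500 to under 4000 bases 2 of 4 were lower (11.3% of other genes). Across genes, length and run difference had a Spearman correlation of 0.58 over 81 members and of 0.38 over 10530 genes, as a description of genes that share libraries. Length also moved with the group difference among members, with a Spearman correlation of 0.38 over the 81, beside 0.08 over the 10530 genes. The part of length in the group differences was not tested beyond the corrected fit given above. With each library corrected for length, 54 of 81 members were lower in run 2 with a median of -0.33. With a correction for GC content 71 of 81 were lower, with a median of -0.81. Over all genes 3082 and 3847 of 10531 were called in either direction, with medians of -0.02 and -0.004. The part of RNA quality or library preparation in this was not tested.

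**Figure D5:**
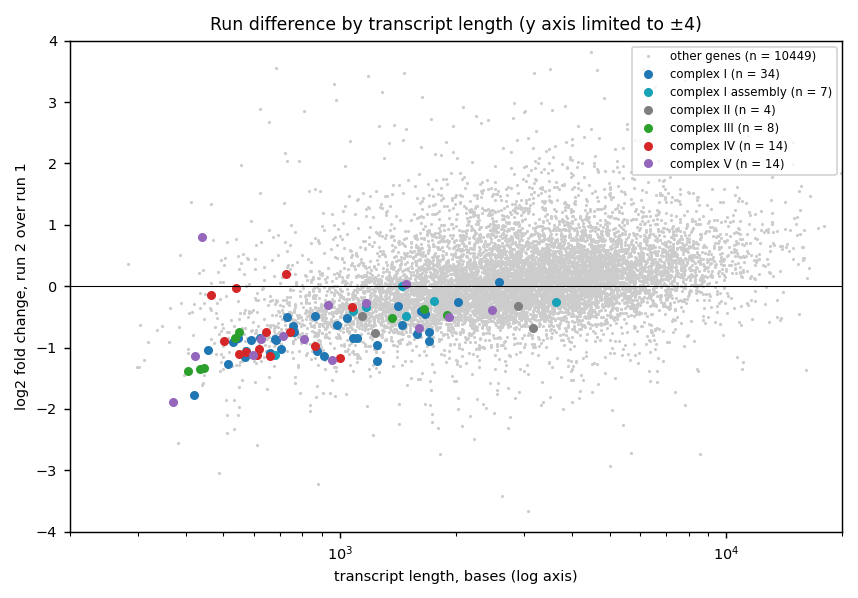
Log2 fold change of run 2 over run 1 (y axis, limited to ±4) against transcript length in bases (log x axis), with members coloured by complex and all other genes in grey. Members lie mostly below 0 and are lowest at the shortest lengths, as at -1.88 for Atp5k.

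An interaction of group and run was called for 0 of the 83 members and for 0.00% of all genes (edgeR). At an unadjusted p under 0.05 there were 723 of 11020 genes and 1 member, Ndufa10 (p = 0.039, edgeR).

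Per length, the highest member in sufficient lymphomas was Atp5b, the catalytic beta subunit, at 834 CPM per kilobase ± 93.3 (SD, n = 7) in run 1 and 620.2 ± 71.3 (SD, n = 5) in run 2. The next 3 in run 1 were Cox8a at 680 ± 139, Cox4i1 at 554 ± 140 and Atp5a1 at 536 ± 112 CPM per kilobase. In run 2 they were in the reverse order, Atp5a1 at 398 ± 98.4, Cox4i1 at 341 ± 129 and Cox8a at 312 ± 98.7, neighbours that differed by less than their spread in each run. Over both runs, levels in complex II ran from 33.9 for Sdhc to 130.1 for Sdha, and complex III from 47.7 for Uqcrb to 276 for Uqcrh. Assembly factors of complex I ran from 8.30 for Ndufaf6 to 24.6 for Ndufaf2. The lowest member was Cox4i2, at 0.284, before Cox6b2 at 1.51 and Atp5s at 4.12. Of the 81 members with an annotated transcript, 14 share at least 25% of their 50-base stretches with other genes, among them Uqcrb (43.4%) and Cox7c (53.0%), so these levels are uncertain.

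The members also varied together from lymphoma to lymphoma after group and run were taken out. The median correlation of residual log2 CPM over the 23 libraries was 0.205 across 3403 member pairs, of which 75.7% were positive. Across all pairs of genes tested it was 0.000127, with 50.02% positive. Pairs within a complex had a median of 0.242 and pairs from different complexes 0.193. Cox4i2, Cox6b2 and Atp5sl had the lowest median correlations to the other members, at -0.06, -0.12 and -0.12, while Ndufa12 and Uqcr10 reached 0.41. Sdha and Ndufaf5 were next to lowest, at -0.03 and -0.02. Counts of Cox4i2 and Cox6b2 were low, and no allowance was made for level. These pairs share the same libraries and depth, and no test was made.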

How the data were processed

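Per the labels' protocols, RNA of purified B lymphoma cells was extracted on columns and made into TruSeq libraries. The authors deposited raw counts per gene for 23 libraries, CPM (counts scaled to the library total), and their own log2 fold changes, mean log2 expression, p-values and FDR. The submitters' processing notes name limma and the builds GRCm38 and mm10. Aligner, counter and strandedness: not given in the sources used here. The repeat library of T cell sufficient lymphoma 1 was not analysed here as its own library, and that lymphoma's column may hold either or both. The column of sufficient lymphoma 4 was matched by its leading number.

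Deposited counts were tested with edgeR 4.0.16 (R 4.3.3): filterByExpr (11020 of 11140 genes kept), TMM, quasi-likelihood with robust dispersion, terms for run and group, Benjamini-Hochberg over all genes. SE is the log2 fold change over the square root of F. Printed CPM are TMM-scaled, and log2 CPM use a prior count of 2. Permutations drew 100000 relabellings within runs or enumerated all splits within a run. Lengths are of GENCODE M21 transcripts, found for 81 members. Alternatives were other scalings, DESeq2 1.42.0, limma-voom (limma 3.58.1), covariates, single runs and libraries left out, plus length and GC corrections added after the data were seen. Code was tested on simulated counts. Precision from depth covers counting error only, and replicates are separately labelled lymphomas.

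Members and lists were chosen with earlier results of these data known. Named members were isoform sets, all called members, the 3 smallest p of each complex and its highest and lowest level per length. Other members and genes were named after their values were seen. Some marker genes are not reported here.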

Additional observations from a re-analysis of the deposited data

How the results depend on the processing

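Cox4i2 was higher in deficient lymphomas in every alternative fit, and with 1 library left out its log2 fold change ran from 4.00 to 4.77. In run 1 alone it was 3.45 and did not pass (edgeR adjusted p = 0.186). The difference in its share of the Cox4 level ran from 1.47 to 1.97 percentage points with 1 library left out. The count of members higher (1) and lower (8) was unchanged by RLE or upper quartile scaling and with no filter. It was 5 and 4 with library totals alone, which moved the median of all genes to 0.06. It was 4 and 8 with DESeq2 and 2 and 7 with limma-voom. Over all genes these fits called 2635 of 11020, 3161 of 11107 and 2497 of 11020, beside 2448 of 11020 in the fit used above. The count of members was 1 and 2 with no run term, and 1 and 5 with the log2 library total as a term. It was 0 and 0 in run 1 alone (7 members had an unadjusted p under 0.05) and 1 and 2 in run 2 alone. Calls over all genes fell too, to 1753 of 11020, 1738 of 11020, 0 of 11064 and 1359 of 11051. The count of members was 2 and 3 without the 3 mixed libraries, 3 and 3 with the length correction and 2 and 6 with the GC correction. Over all genes 1470 of 11043, 2331 of 10531 and 2264 of 10531 were called there. With 1 library left out, members higher ran from 1 to 4 and members lower from 5 to 11, with 5 lower without sufficient 11 or deficient 10, and 4 higher without deficient 6. Members higher numbered 2 without sufficient 4, 5, 9 or 10 or deficient 8. With 1 library left out, calls over all genes ran from 1945 without sufficient 8 to 2783 without sufficient 5. Ndufa6, Cox7a2l and Cox4i2 stayed called in all of these fits except run 1 alone.

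With the replicate number as a block the counts were 2 and 3, and Cox6b2 was then called (log2 fold change 1.90, edgeR adjusted p = 0.0416). That fit called 1832 of 11020 genes. Residual correlations of the 11 same-numbered pairs ran from -0.277 to 0.29, and 6 of 11 were above 0.1. Not every pair was above 0.1 and the labels tie the numbers to nothing shared, so the numbers were not taken to pair the libraries. Members lower in run 2 numbered 69 to 73 with 1 library left out. They numbered 62 of 81 in the sufficient group alone and 69 of 82 in the deficient group alone. Without the mixed libraries they numbered 71, with library totals alone 68, with the block 67 and with the length correction 54 of 81. Over all genes, 2219 of 9760 were called in either direction in the sufficient group alone and 2093 of 10074 in the deficient. Such calls were 3310 of 11043 without the mixed libraries, 3913 of 11020 with library totals alone and 3108 of 11020 with the block. With 1 library left out they ran from 3643 to 4120.

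Members near 0 changed sign, and the cause was not tested. Atp5s was -0.014 in run 1 alone and -0.033 with the GC correction. Cox7a2 was -0.083 with no run term and -0.0035 in run 2 alone, where Ndufaf4 was -0.028, Sdha 0.062, Sdhc 0.019 and Sdhd -0.047. With library totals alone Sdha was 0.054 and Sdhc 0.045, and with the log2 library total Sdha was 0.019. With no run term Sdhd was -0.0056 and Uqcrb -0.015. With 1 library left out the ranges were -0.040 to 0.080 for Atp5s, -0.0075 to 0.096 for Cox7a2, -0.083 to 0.025 for Sdha, -0.063 to 0.0082 for Sdhc and -0.025 to 0.12 for Sdhd.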
